A study of Mus musculus with 12 samples.

Results

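Antigen presentation by major histocompatibility complex (MHC) class I was described here in mouse lung after irradiation through 10 genes, chosen by name. They were the heavy chain genes H2-K1 and H2-D1, the light chain gene B2m, the class I transactivator gene Nlrc5, the peptide transport and loading genes Tap1, Tap2 and Tapbp, and the immunoproteasome genes Psmb8, Psmb9 and Psmb10. All 10 were found among the 23238 gene symbols of the count tables, and all 10 passed the filter on low counts that left 16484 genes for testing. The libraries came from lung of mice without irradiation (NoIR, 3 libraries) and from lung sampled 8 d, 11 d or 14 d after irradiation (IR_8d, IR_11d and IR_14d, 3 libraries each). The irradiated samples were taken within the irradiated areas only. Radiation dose, strain, age, sex and the region of lung taken from the unirradiated mice are not stated in the sources used here. Nothing there says that the replicates were different mice, so the p-values speak only of the variation among these libraries, and that variation may be technical.

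Class I molecules carry short peptides from proteins made inside a cell to its surface, where CD8 T cells read them. The peptides are cut by the proteasome, carried into the endoplasmic reticulum by the Tap1-Tap2 transporter, and loaded with the help of tapasin, the product of Tapbp, onto a heavy chain paired with beta-2-microglobulin. Interferon-gamma is known to switch on the whole route, and to replace 3 catalytic proteasome subunits, Psmb5, Psmb6 and Psmb7, with their inducible counterparts Psmb8, Psmb9 and Psmb10. Nlrc5 is a regulator that activates transcription from class I promoters. In lung, epithelium, endothelium and leukocytes all express class I.

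Library sizes ranged from 19624554 to 27765751 counts. Alveolar type 2 and type 1 marker genes, 5 of each, were detected in every group, led by surfactant gene Sftpc with 21110 ± 2010.2 CPM in NoIR (counts scaled to the effective library size, mean ± SD, n = 3). On the first principal component, which held 58.1% of the variance, the NoIR libraries (-67.72 to -61.1) lay apart from the irradiated ones (-7.73 to 44.65). Its scores placed 11 d replicate 1, at 43.35, within the range of the 14 d group (28.23 to 44.65) and apart from the other 11 d libraries (17.77 and 19.34).

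The 10 genes occupy 3 chromosomes in mm10. Tapbp (chr17:33915899-33929292), H2-K1 (chr17:33996017-34000347) and H2-D1 (chr17:35262730-35267499) lie on chromosome 17 together with a compact group made of Psmb9 (chr17:34181987-34187764), Tap1 (chr17:34187553-34197225), Psmb8 (chr17:34197721-34201454) and Tap2 (chr17:34203527-34216321). Psmb9 is read from the minus strand and the other genes of that group from the plus strand, and the ends of Psmb9 and Tap1 overlap by 212 bases. Psmb10 (chr8:105935735-105938444) and Nlrc5 (chr8:94434356-94527272) lie on chromosome 8, and B2m (chr2:122147686-122153083) on chromosome 2.

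RefSeq promoter windows of the GRCm38.p6 assembly, the build that mm10 names, were matched for 8 of the 10 genes, all but Nlrc5 and Tap2. Each window holds 300 bases, 250 before and 50 after the RefSeq start. The windows of H2-K1 (chr17:34000298-34000597, minus strand), H2-D1 (chr17:35262844-35263143, plus strand) and B2m (chr2:122147437-122147736, plus strand) are shown because these are the partner chains of the class I molecule. The window of Tap1 (chr17:34187306-34187605, plus strand) is shown because it shares 275 of its 300 bases, on the opposite strand, with that of Psmb9. The window of Psmb8 (chr17:34197945-34198244, plus strand) is shown as that of the inducible subunit gene with the highest fold. Sequences run 5′ to 3′ along the strand of the gene, and capitals mark every match, on either strand, to the 5 motifs given in the next paragraph.
H2-K1: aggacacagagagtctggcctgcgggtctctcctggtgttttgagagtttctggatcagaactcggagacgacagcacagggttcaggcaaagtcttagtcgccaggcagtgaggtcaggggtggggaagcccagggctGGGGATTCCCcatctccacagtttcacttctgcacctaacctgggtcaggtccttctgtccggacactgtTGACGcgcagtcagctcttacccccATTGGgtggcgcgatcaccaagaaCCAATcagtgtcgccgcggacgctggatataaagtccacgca
H2-D1: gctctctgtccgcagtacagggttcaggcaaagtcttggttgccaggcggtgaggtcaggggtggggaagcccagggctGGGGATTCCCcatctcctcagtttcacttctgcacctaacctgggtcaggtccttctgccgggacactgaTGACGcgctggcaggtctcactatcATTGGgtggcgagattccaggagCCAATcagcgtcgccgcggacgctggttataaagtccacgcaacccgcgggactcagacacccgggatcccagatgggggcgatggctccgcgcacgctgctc
B2m: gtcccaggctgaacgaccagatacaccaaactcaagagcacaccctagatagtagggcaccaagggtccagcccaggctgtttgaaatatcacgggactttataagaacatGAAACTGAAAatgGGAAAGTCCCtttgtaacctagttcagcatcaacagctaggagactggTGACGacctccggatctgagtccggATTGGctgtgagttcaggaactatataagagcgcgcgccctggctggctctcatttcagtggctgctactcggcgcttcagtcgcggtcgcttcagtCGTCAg
Tap1: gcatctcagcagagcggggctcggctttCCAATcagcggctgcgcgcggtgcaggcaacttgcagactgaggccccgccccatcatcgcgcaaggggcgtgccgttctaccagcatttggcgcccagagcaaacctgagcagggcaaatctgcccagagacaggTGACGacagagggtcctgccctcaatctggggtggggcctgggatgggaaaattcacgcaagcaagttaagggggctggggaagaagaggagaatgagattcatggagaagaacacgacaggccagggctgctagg
Psmb8: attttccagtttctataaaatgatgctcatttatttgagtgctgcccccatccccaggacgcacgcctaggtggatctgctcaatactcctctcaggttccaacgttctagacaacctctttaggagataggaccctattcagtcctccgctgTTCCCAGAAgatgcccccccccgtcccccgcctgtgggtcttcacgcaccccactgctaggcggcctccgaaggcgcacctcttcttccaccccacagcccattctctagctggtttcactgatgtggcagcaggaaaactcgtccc

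The kappaB motif, searched as GGG, any 2 bases, TT, any base and CC, was found in 3 of the 8 windows and in 4.79% of all 32851 RefSeq windows. Its match began 111 bases before the start in H2-K1, 171 bases before it in H2-D1 and 126 bases before it in B2m, and the heavy chain genes carry the same 10 letters, GGGGATTCCC. The core of the interferon-stimulated response element, GAAA, any 2 bases and GAAA, was found in B2m, 1 of 8 windows, against 3.44% of all windows. The interferon-gamma activated site, TTCNNNGAA, was found in Psmb8, 1 of 8 windows, against 8.3% of all windows. The CCAAT box was found in 6 of 8 windows against 37.4%, and TGACG, the core of the cyclic AMP response element, in 5 of 8 against 20.8%. None of the motif matches overlapped another. Each match is a run of letters and not a measured binding site. The search took only the letters given, so a window without a match may still hold a variant of the motif. The RefSeq starts need not be those used in this tissue.

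Most of the 10 genes were called higher in irradiated lung at each of the 3 times. The class I chain genes H2-D1 and B2m were not called at 8 d, nor was Tap2 at 11 d or 14 d. At 8 d, 8 of the 10 genes were called higher than in NoIR at a Benjamini-Hochberg adjusted p under 0.05 (edgeR quasi-likelihood F test, 1 fit of all 12 libraries), where 13% of the 16484 genes tested were called higher. At 11 d it was 9 of 10, against 19.4% of all genes, and at 14 d again 9 of 10, against 20% of all genes. No member was called lower at any time, where 10.6%, 17.8% and 18.9% of all genes were. All libraries of the irradiated group lay above all those of NoIR in 9 members at 8 d, 10 at 11 d and 9 at 14 d, and in 19.8%, 28.2% and 25.8% of all genes. The median log2 change of the 10 genes was 0.56 at 8 d, 1.04 at 11 d and 1.35 at 14 d, and over all genes tested it was 0.01, -0.01 and 0.01. Compared directly, the median of the 10 genes was 0.39 for 11 d against 8 d and -0.04 for 14 d against 11 d. For 14 d against 8 d it was 0.26, so the medians against NoIR do not show a steady climb of the whole set. These are changes in bulk lung tissue, in which more cells of a type and more RNA per cell cannot be told apart. Since the region taken from the unirradiated mice is not stated, a difference of region and irradiation cannot be told apart either. The 6 general leukocyte markers were called higher at each time, 6 of 6, and their summed level ranged over 503.1 to 603.2 CPM in NoIR. The range was 1008.1 to 1277.3 CPM at 8 d, 1380.3 to 1952.1 CPM at 11 d and 1689.1 to 2107.2 CPM at 14 d. None of the 6 was at 0 in any group, and their part in the rise of the class I genes was not tested.

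**Figure D1:**
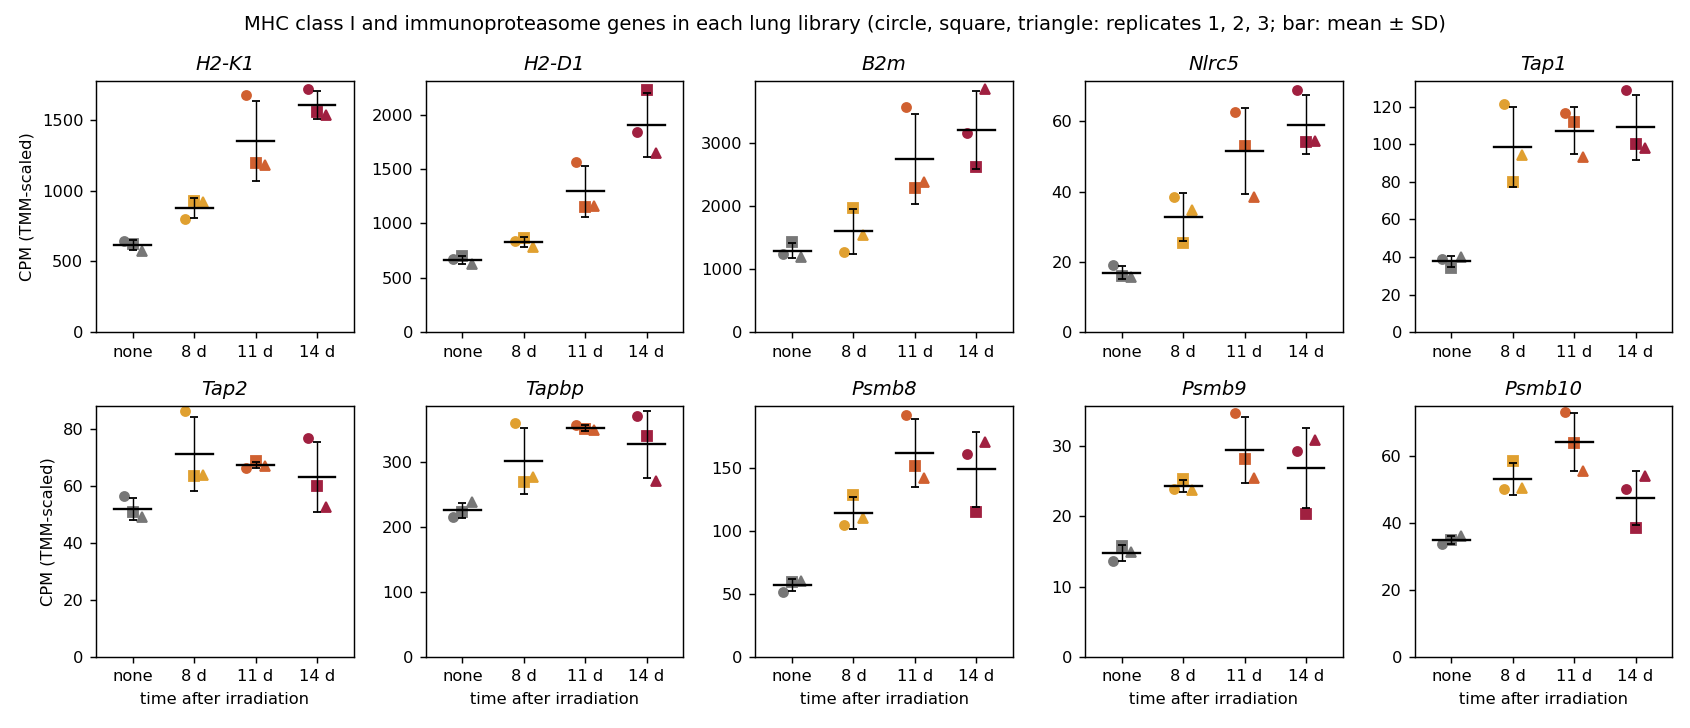
Level of each of the 10 genes in each library, in CPM scaled by the trimmed mean of M values (TMM), against time after irradiation (none, 8 d, 11 d, 14 d; points are libraries, horizontal bars means and vertical bars SD, n = 3). H2-K1 climbs from 575.9 to 642.8 CPM in NoIR to 1535.6 to 1719.6 at 14 d, while Tap2 stays between 49.1 and 86.4 CPM in all 12 libraries.

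The heavy chain genes kept apart from their unirradiated levels and rose further between 8 d and 14 d. H2-K1, the classical class I heavy chain gene of the K locus, had 642.8, 626.3 and 575.9 CPM in the NoIR libraries (replicates 1, 2 and 3, here and below), 799.4, 926.0 and 918.0 at 8 d, 1679.6, 1197.0 and 1184.5 at 11 d, and 1719.6, 1559.3 and 1535.6 at 14 d. Every irradiated library lay above every NoIR library, the 8 d libraries lay below the rest of the irradiated ones, and 11 d replicate 1 was as high as the 14 d libraries. The log2 change from NoIR was 0.52 (SE 0.15, adjusted p = 0.025) at 8 d, 1.14 (SE 0.16, adjusted p = 6.7e-05) at 11 d and 1.38 (SE 0.16, adjusted p = 8.1e-06) at 14 d by edgeR.

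H2-D1, the heavy chain gene of the D locus, had 675.7, 697.0 and 625.8 CPM in NoIR, 840.9, 869.4 and 778.2 at 8 d, 1564.4, 1154.5 and 1160.4 at 11 d, and 1841.3, 2227.8 and 1647.1 at 14 d. The 4 groups did not overlap, and 14 d replicate 2 stood above all other libraries. The change was 0.32 (SE 0.16, 95% interval -0.02 to 0.66) at 8 d, which missed the threshold with an edgeR adjusted p of 0.17. It was 0.96 (SE 0.16, adjusted p = 0.00034) at 11 d and 1.52 (SE 0.16, adjusted p = 4.9e-06) at 14 d. Heavy chain genes share sequence: 14.3% of the 50-base words of the longest H2-D1 transcript and 8.79% of those of H2-K1 occur in a transcript of another gene, H2-Q1 being the first such gene for H2-D1 with 7.4%. How reads matching several genes were counted is not stated in the sources used here, so the split of counts between these genes is uncertain.

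B2m, the light chain gene shared by class I and class I-like molecules, had 1242.9, 1420.0 and 1196.3 CPM in NoIR, 1272.0, 1967.7 and 1544.3 at 8 d, 3556.1, 2281.6 and 2380.4 at 11 d, and 3156.6, 2612.9 and 3840.8 at 14 d. The 8 d libraries overlapped NoIR, and the 11 d and 14 d libraries lay above both. At 8 d the change of 0.31 (SE 0.21, 95% interval -0.15 to 0.77) missed the threshold with an edgeR adjusted p of 0.33. B2m then stood 1.09 (SE 0.22, adjusted p = 0.0013) above NoIR at 11 d and 1.32 (SE 0.22, adjusted p = 0.00023) at 14 d. Patl2, which overlaps B2m on the opposite strand over 5398 bases, reached at most 0.167 CPM in any library.

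Nlrc5, the transactivator gene, had the largest fitted change of the 10 genes at 11 d and at 14 d. It had 19, 15.9 and 15.8 CPM in NoIR, 38.5, 25.3 and 34.8 at 8 d, 62.8, 53.1 and 38.5 at 11 d, and 68.8, 54.0 and 54.4 at 14 d. All irradiated libraries were above NoIR, and the 14 d libraries were above those at 8 d. The log2 change was 0.96 (SE 0.19, adjusted p = 0.0026) at 8 d, 1.61 (SE 0.2, adjusted p = 2.6e-05) at 11 d and 1.81 (SE 0.2, adjusted p = 6.1e-06) at 14 d by edgeR.

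The transporter subunits did not move alike. Tap1 had 38.7, 34.4 and 40.1 CPM in NoIR, 121.7, 79.8 and 94.5 at 8 d, 116.9, 112.1 and 93.1 at 11 d, and 129, 100 and 98 at 14 d. Its irradiated libraries overlapped one another and all lay well above NoIR. It was the member with the largest change at 8 d, 1.39 (SE 0.17, adjusted p = 5.6e-05), followed by 1.51 (SE 0.17, adjusted p = 1.2e-05) at 11 d and 1.53 (SE 0.17, adjusted p = 6.1e-06) at 14 d.

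Tap2, its partner in the transporter, had 56.5, 50.8 and 49.1 CPM in NoIR, 86.4, 63.4 and 64.1 at 8 d, 66.5, 68.7 and 67.2 at 11 d, and 76.8, 60 and 52.8 at 14 d. The 8 d and 11 d libraries lay above NoIR, 8 d replicate 1 being the highest, and 14 d replicate 3 fell within the NoIR range. Tap2 was called at 8 d with 0.45 (SE 0.15, adjusted p = 0.047) and had 0.37 (SE 0.15, adjusted p = 0.072) at 11 d and 0.28 (SE 0.15, adjusted p = 0.18) at 14 d. Without 8 d replicate 1 the 8 d call was lost. Over all 4 groups jointly it was also the only member not called, with an edgeR adjusted p of 0.11, where 39.2% of all genes were called.

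Tapbp, the tapasin gene, had 215.8, 223.2 and 238.6 CPM in NoIR, 361.1, 269.3 and 277.0 at 8 d, 357.7, 351.2 and 349.6 at 11 d, and 371.2, 340.6 and 270.9 at 14 d. All irradiated libraries were above NoIR, the 3 at 11 d lay close together, and the lowest at 14 d lay at the level of the lower 8 d libraries. The changes were 0.42 (SE 0.14, adjusted p = 0.048), 0.64 (SE 0.14, adjusted p = 0.0032) and 0.54 (SE 0.14, adjusted p = 0.0087). At 14 d the adjusted p was 0.052 without 14 d replicate 1, and at 8 d the call was kept in 8 of 21 alternative settings of the fit. With the replicate number as a block over all 12 libraries, the 8 d change of Tapbp was 0.41 (edgeR adjusted p = 0.06). This left 7 members called at 8 d.

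All 3 immunoproteasome genes rose at every time, by different amounts. Psmb8, which encodes the inducible chymotrypsin-like subunit, had 51.2, 59.3 and 60.1 CPM in NoIR, 104.4, 128.8 and 110.2 at 8 d, 192.3, 151.8 and 141.7 at 11 d, and 161.0, 115.0 and 170.9 at 14 d. The irradiated libraries all lay above NoIR, those at 11 d above those at 8 d, and 14 d replicate 2 fell back into the 8 d range. The changes were 1.01 (SE 0.16, adjusted p = 0.00056), 1.51 (SE 0.17, adjusted p = 1.2e-05) and 1.39 (SE 0.17, adjusted p = 1.3e-05) by edgeR.

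Psmb9, the inducible counterpart of Psmb6, had 13.6, 15.8 and 14.9 CPM in NoIR, 23.9, 25.3 and 23.7 at 8 d, 34.7, 28.1 and 25.5 at 11 d, and 29.3, 20.3 and 30.9 at 14 d. Irradiated libraries were above NoIR throughout, with 14 d replicate 2 the lowest of them. Psmb9 changed by 0.71 (SE 0.17, adjusted p = 0.0064), 0.99 (SE 0.17, adjusted p = 0.00035) and 0.86 (SE 0.17, adjusted p = 0.00085). Reads in the bases that Psmb9 shares with Tap1 cannot be assigned with certainty, since no source used here states the strand setting of the counts.

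Psmb10, the inducible trypsin-like subunit gene, had 33.8, 34.8 and 36.1 CPM in NoIR, 50.3, 58.6 and 50.5 at 8 d, 73.1, 63.9 and 55.6 at 11 d, and 50.2, 38.5 and 54.0 at 14 d. All 9 irradiated libraries were above NoIR, and 14 d replicate 2 came closest to it. The changes were 0.61 (SE 0.14, adjusted p = 0.0075), 0.88 (SE 0.14, adjusted p = 0.00031) and 0.45 (SE 0.14, adjusted p = 0.024). The 14 d call was kept in 17 of 21 alternative settings and lost without NoIR replicate 1 or 2 or without 14 d replicate 1 or 3.

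The 8 d count rested partly on single libraries. Without any 1 of the NoIR libraries, replicate 1, 2 or 3, it fell from 8 to 5 members, in each case Tap1, Psmb8, Psmb9, Psmb10 and Nlrc5. These 5 were called at 8 d in all 21 alternative settings, whereas H2-K1 was called in 16, Tap2 in 10 and Tapbp in 8.

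**Figure D2:**
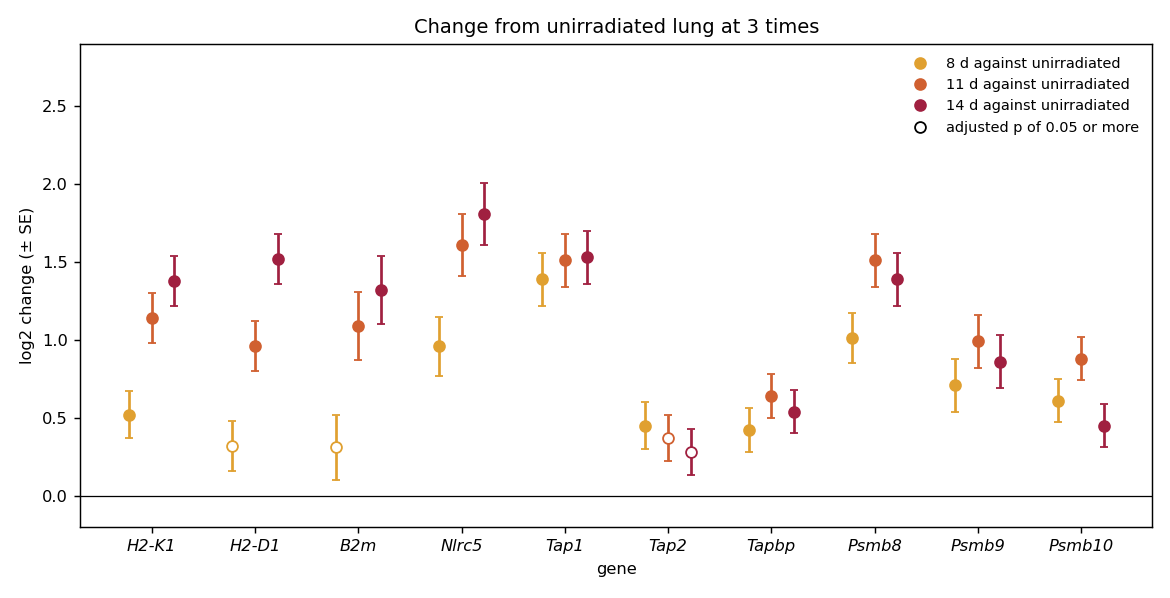
Log2 change of each gene from NoIR at 8 d, 11 d and 14 d with its SE (edgeR; open circles have an adjusted p of 0.05 or more). The heavy chain genes, B2m and Nlrc5 step upward from 8 d to 14 d, from 0.52 to 1.38 for H2-K1, while Tap1 lies between 1.39 and 1.53 at all 3 times and Tap2 between 0.28 and 0.45.

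Among the irradiated times, the chains of the class I molecule and the transactivator gene were those that differed. In a joint test of the 3 irradiated groups 4 of the 10 members were called, H2-K1, H2-D1, B2m and Nlrc5, against 11.7% of all genes. The same 4 were called higher at 14 d than at 8 d, where 8.1% of all genes were called higher. The log2 differences were 0.86 for H2-K1 (SE 0.15, adjusted p = 0.0019), 1.2 for H2-D1 (SE 0.16, adjusted p = 0.00029), 1.01 for B2m (SE 0.22, adjusted p = 0.0058) and 0.84 for Nlrc5 (SE 0.19, adjusted p = 0.0084), by edgeR. In these 4 genes the 8 d and 14 d libraries did not overlap, as was so, with 14 d higher, of 15.1% of all genes.

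For 5 of the other members the 95% interval of the difference between 14 d and 8 d held 0. These intervals were -0.2 to 0.49 for Tap1, -0.5 to 0.15 for Tap2, -0.19 to 0.42 for Tapbp, -0.21 to 0.49 for Psmb9 and -0.47 to 0.15 for Psmb10. Psmb8 lay at 0.38 (interval 0.03 to 0.73, edgeR adjusted p = 0.14). Without 8 d replicate 3 the joint test called only H2-K1 and H2-D1, and without 14 d replicate 1 Nlrc5 was not called at 14 d against 8 d (adjusted p = 0.051).

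Neighbouring times gave no calls with edgeR. Between 8 d and 11 d 0 of 10 members were called, against 2.14% of all genes, although 5 had an unadjusted p under 0.05, and H2-K1 and H2-D1 both had an adjusted p of 0.052 with differences of 0.62 and 0.64. DESeq2 called 4 members there, H2-K1, H2-D1, B2m and Nlrc5, and limma-voom called H2-K1 and H2-D1. Between 11 d and 14 d 0 of 10 were called, against 1.8% of all genes, and 2 had an unadjusted p under 0.05. They were H2-D1, higher by 0.56 at 14 d (adjusted p = 0.093), and Psmb10, which had a difference of -0.43 (adjusted p = 0.15). DESeq2 called H2-D1 in that comparison and limma-voom none of the members. H2-D1 was also called by edgeR there without 11 d replicate 1.

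Levels per kilobase of the longest coding transcript placed the members in order. In NoIR, B2m stood at 1495.8 ± 137.3 CPM per kb (SD, n = 3), H2-K1 at 379.9 ± 21.5, H2-D1 at 316.9 ± 17.4 and Tapbp at 77.9 ± 4. The proteasome and transporter genes followed, from Psmb8 with 34.9 ± 3.02 and Psmb10 with 26.6 ± 0.884 to Tap2 with 15.1 ± 1.13, Tap1 with 12.8 ± 1.01 and Psmb9 with 10.9 ± 0.814. The regulator Nlrc5 was lowest, at 2.22 ± 0.239 CPM per kb, and each neighbouring pair in this order differed by more than the larger of its SDs.

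At 14 d the upper and lower ends of the order were the same, B2m at 3724.9 ± 715.4 CPM per kb and Nlrc5 at 7.79 ± 1.11. Tap1, at 36.9 ± 5.88, stood above Tap2, at 18.4 ± 3.58. At 14 d 3 neighbouring pairs were closer than their spread, H2-K1 (991.3 ± 61.8) with H2-D1 (906.5 ± 140.6), Tap1 with Psmb10 (36.3 ± 6.17), and Psmb9 (19.9 ± 4.22) with Tap2.

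Ratios of counts within a library do not depend on scaling between libraries, and 6 were compared over the groups by exact permutation tests with p adjusted over 12 tests. The ratio of Tap1 to Tap2, per kilobase, was 0.797, 0.789 and 0.954 in NoIR, 1.64, 1.47 and 1.72 at 8 d, 2.05, 1.90 and 1.61 at 11 d, and 1.96, 1.94 and 2.16 at 14 d. It lay below 1 in each NoIR library and above 1 in each irradiated library (exact permutation p = 0.0013, adjusted p = 0.0078). With the replicate number as a block the call was lost (adjusted exact permutation p = 0.073). That block spanned all 4 groups, whereas the numbers were read as pairing only NoIR with 8 d. No ratio test blocked on NoIR and 8 d alone was run, so the lost call stands as a limit. Among the irradiated times alone the exact test gave an adjusted p of 0.12.

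The ratio of Psmb8 to Psmb5, the constitutive subunit it replaces, was 1.12, 1.03 and 1.17 in NoIR, 1.27, 1.46 and 1.83 at 8 d, 2.16, 1.99 and 1.70 at 11 d, and 2.39, 1.91 and 2.59 at 14 d. All irradiated libraries had a higher ratio than all NoIR libraries, and the 11 d libraries overlapped those at 8 d and at 14 d, which did not overlap each other (exact permutation adjusted p = 0.0078 over the 4 groups and 0.12 among the irradiated times). With the replicate number as a block the adjusted exact permutation p over the 4 groups was 0.073, and the call was lost. Here too the block included the 11 d and 14 d groups, which the numbers were not read as pairing, and the lost call stands as a limit. The ratios of the other inducible subunits missed the threshold. Psmb9 to Psmb6 had mean ratios of 0.0836, 0.0933, 0.0906 and 0.111 in NoIR and at 8 d, 11 d and 14 d (exact permutation adjusted p = 0.12), and Psmb10 to Psmb7 had 0.468, 0.468, 0.545 and 0.51 (exact permutation adjusted p = 0.41). A p above the threshold does not show that these ratios were equal.

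The balance between class I chains was also compared. H2-K1 to H2-D1 had mean ratios of 1.2 ± 0.0345, 1.38 ± 0.149, 1.36 ± 0.0352 and 1.11 ± 0.175 (SD, n = 3), with the lowest library, 0.909, being 14 d replicate 2 (exact permutation adjusted p = 0.12). H2-K1 to B2m had 0.255, 0.3, 0.265 and 0.273 (exact permutation adjusted p = 0.63), so that the groups overlapped.

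**Figure D3:**
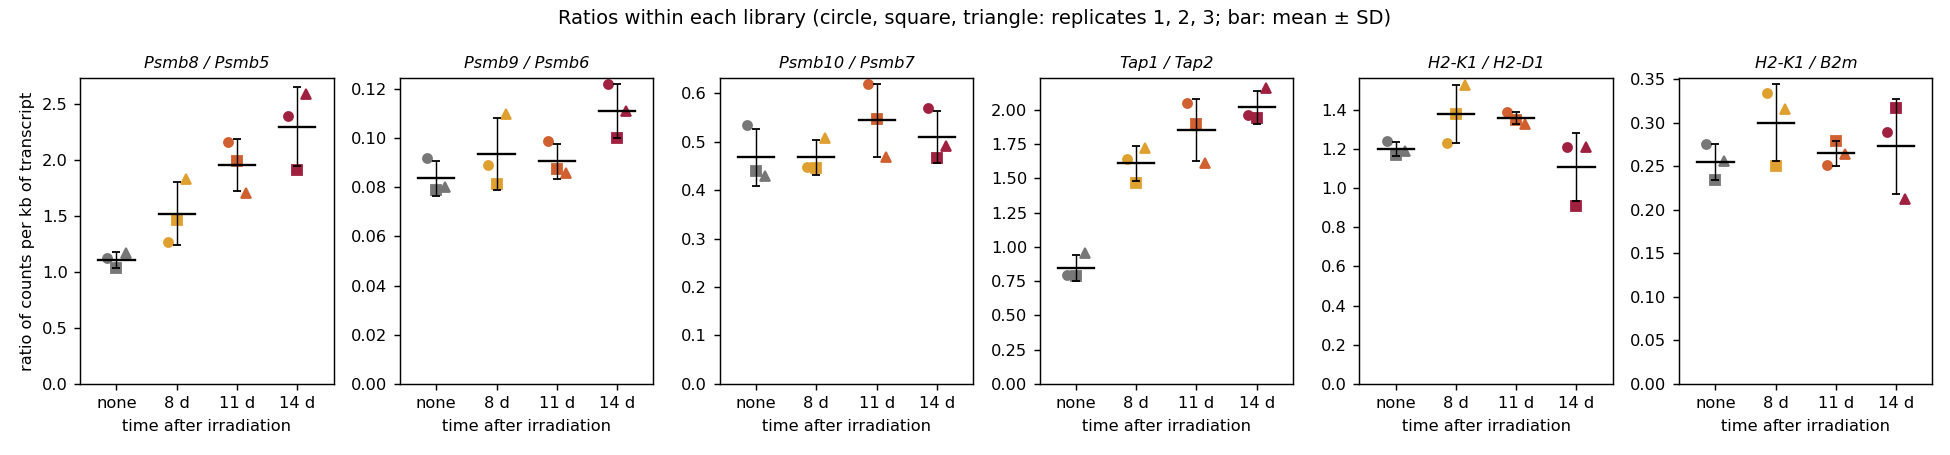
Ratios of counts per kb of transcript within each library against time after irradiation (points are libraries, bars mean and SD, n = 3). Tap1 to Tap2 moves from 0.789 to 0.954 in NoIR to 1.47 to 2.16 after irradiation and Psmb8 to Psmb5 from 1.03 to 1.17 up to 2.59, while Psmb10 to Psmb7 and H2-K1 to B2m overlap between groups.

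Of the 4 adjacent genes on chromosome 17, Psmb9, Tap1 and Psmb8 rose at every time and Tap2, the last in the row, was called at 8 d only. Tap1 and Psmb8 had changes of 1.53 and 1.39 at 14 d, and Tap2, which starts 15.97 kb from the start of Tap1, had 0.28 (interval -0.05 to 0.61). Psmb9, whose promoter window is nearly that of Tap1, had 0.86 (interval 0.5 to 1.21) against 1.53 (interval 1.17 to 1.89) for Tap1. Antisense and overlapping transcripts are annotated beside several members, among them Gm20496 over parts of Psmb8 and Tap2 and Gm16156 over Psmb10. Without a stated strand setting, reads from such partners cannot be told apart from those of the members. Zbtb22 overlaps Tapbp over 3422 bases on the same strand, where a strand setting would not separate them, and had 14.1 to 21.4 CPM.

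**Figure D4:**
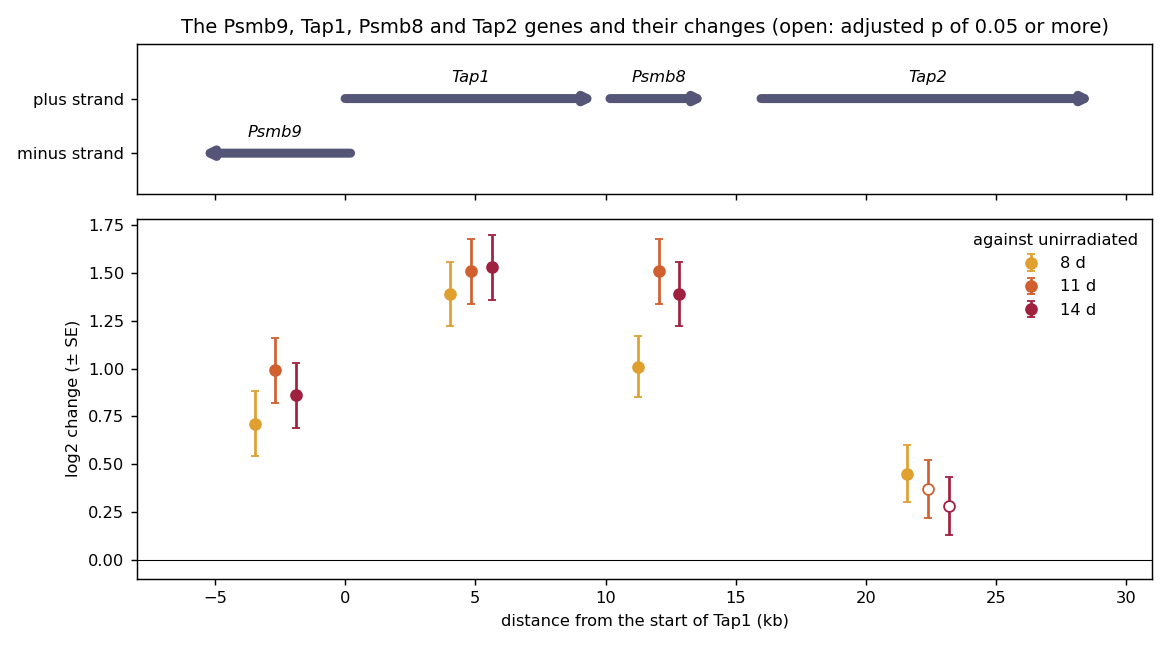
Upper panel, the 4 adjacent genes drawn to scale by distance from the start of Tap1 in kb, with arrows in the direction of transcription; lower panel, log2 change from NoIR with SE at 8 d, 11 d and 14 d (edgeR; open circles have an adjusted p of 0.05 or more). Tap1 and Psmb8 reach 1.53 and 1.51, Psmb9 stays at or below 0.99, and Tap2 at or below 0.45.

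Genes of the constitutive proteasome were called higher mostly at 8 d and 11 d. Psmb5, Psmb6 and Psmb7, the subunits replaced in the immunoproteasome, were called higher at 8 d (0.58, 0.57 and 0.6) and 11 d (0.68, 0.86 and 0.64), 3 of 3 each time, and 0 of 3 were called at 14 d (0.32, 0.43 and 0.31, with edgeR adjusted p of 0.1, 0.052 and 0.11). Of 11 other subunits of the 20S core, 4 rose at 8 d, 10 at 11 d and 1 at 14 d. Psma4, of the alpha ring, was the gene that rose at 14 d and had 0.67, 0.93 and 0.63. Psma7, also of the alpha ring, rose by 0.56 and 0.78 and had 0.35 at 14 d, and Psmb3, of the beta ring, rose by 0.55 and 0.62 and had 0.21. Psma5 rose at 11 d (0.78) and had 0.47 at 8 d and 0.43 at 14 d. Of 18 genes of the 19S cap, which recognises and unfolds tagged proteins, 10, 14 and 3 rose, among them the lid genes Psmd8 (0.58, 0.87 and 0.74), Psmd14 (0.61, 0.91 and 0.64) and Psmd11 (0.41, 0.54 and 0.32). Psmd13, another lid gene, rose by 0.52 and 0.62 and had 0.16 at 14 d. No gene of these 3 lists was called lower. None was called in either direction at 14 d against 8 d or 11 d, so a return by 14 d was not shown. Over all genes tested 13%, 19.4% and 20% were called higher than NoIR at the 3 times, and the 14 d counts of these lists were near or under that share. The same shares stand beside the counts of genes that rose in the lists that follow.

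Among 9 activator and assembly genes 2, 5 and 3 rose. Psme1 and Psme2, the PA28 activator pair known to be induced by interferon-gamma, rose at every time. Psme1 had changes of 0.65, 0.88 and 0.58, and Psme2 of 0.87, 1.23 and 0.75, with edgeR adjusted p of 0.01 or less at each time. Psme4, which encodes the activator PA200, rose at 14 d (0.64, adjusted p = 0.00095), and Psmg4, an assembly chaperone gene, at 11 d (0.72, adjusted p = 0.028).

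Other genes of peptide loading and trimming were called at the later times. Of 7, 0 were called at 8 d, 3 at 11 d and 4 at 14 d. Calr (0.84 and 0.62) and Canx (0.47 and 0.44), both chaperone genes, and the peptidase gene Tpp2 (0.35 and 0.62) rose at 11 d and 14 d. Lnpep, a trimming aminopeptidase gene, rose at 14 d (1.02, SE 0.23). At 8 d, where no gene of the list was called by edgeR, Calr had 0.46 with an adjusted p of 0.053.

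Other heavy chain genes were called mostly at 11 d and 14 d. Of 18 class I and class I-like heavy chain genes 3 rose and 2 fell at 8 d, 12 rose and 1 fell at 11 d, and 15 rose and 1 fell at 14 d, with median changes of 0.39, 0.94 and 1.15. H2-M2, a non-classical heavy chain gene, had 2.22, 1.22 and 1.63 CPM in NoIR, 1.78, 3.74 and 1.67 at 8 d, 19, 10.1 and 9.12 at 11 d, and 34.2, 16.6 and 25.5 at 14 d. Its 8 d libraries overlapped NoIR, and its later libraries lay far above both, with changes of 2.92 (SE 0.39, adjusted p = 5.1e-05) at 11 d and 3.91 (SE 0.39, adjusted p = 2.9e-06) at 14 d. H2-T23, which encodes the Qa-1 molecule read by the NK receptor chain Klrc1, rose by 0.42, 0.88 and 1.07. H2-T22 rose by 0.57, 1.06 and 1.13, and H2-Q7 by 1.24 at 11 d and 1.55 at 14 d, with 0.44 (adjusted p = 0.077) at 8 d.

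The genes that fell in this list present no peptides to CD8 T cells. Fcgrt, the heavy chain gene of the neonatal Fc receptor, which carries antibody and albumin, fell at all 3 times (-0.42, -0.55 and -0.36, SE 0.12 each). Cd1d1, whose product presents lipids, fell at 8 d (-0.61, SE 0.2, adjusted p = 0.036) and had -0.28 and -0.1 later.

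The interferon-gamma route and class I regulators moved in part. Of 20 genes 8 rose and 1 fell at 8 d, 9 rose at 11 d and 9 rose at 14 d. Ifng, the gene of interferon-gamma, had 0.113, 0.0738 and 0 CPM in NoIR, 0.89, 1.49 and 0.959 at 8 d, 0.93, 0.562 and 0.674 at 11 d, and 0.81, 0.377 and 1 at 14 d. All irradiated libraries exceeded NoIR, where the gene had 5 counts in the 3 libraries together, against 75, 47 and 52 at the later times. The fitted changes were 4.06 (SE 0.64, adjusted p = 0.00042), 3.45 (SE 0.66, adjusted p = 0.001) and 3.45 (SE 0.66, adjusted p = 0.00077), and with so few counts in NoIR their size is uncertain.

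Irf1, an interferon-induced transcription factor that acts on class I promoters, was called at no time, with 0.19, 0.22 and -0.05 (SE 0.13 each), and all its 12 libraries lay between 75.6 and 122.3 CPM. Irf8, a transcription factor of myeloid and B cells, rose by 2.03, 2.37 and 2.97, Socs1, the feedback inhibitor of the route, by 2.01, 2.52 and 1.97, and the kinase gene Jak2 by 0.5, 0.8 and 0.94. Irf2, known to compete with Irf1, fell at 8 d (-0.37, SE 0.12, adjusted p = 0.045) and had -0.27 and -0.21 later.

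MHC class II, which presents peptides from outside the cell on professional antigen presenting cells, rose at each time. All 10 class II genes were called higher at 8 d, 11 d and 14 d, and their median changes were 1.4, 1.52 and 2.1. H2-Ab1 rose by 1.51, 2.06 and 2.64, H2-Eb1 by 1.49, 2.08 and 2.76, the invariant chain gene Cd74 by 1.03, 1.5 and 2.22, and the peptide exchange gene H2-DMa by 0.77, 1.13 and 2.02. Their summed level was 1073.5 to 1457 CPM in NoIR and 5362.3 to 8357.2 at 14 d.

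Genes of CD8 T cells and NK cells, which read class I, rose as well, 13 of 13 at 8 d, 13 of 13 at 11 d and 11 of 13 at 14 d. The summed level of the 13 was 54.6 to 63.3 CPM in NoIR. It was 194.9 to 271.4 CPM at 8 d, 214.9 to 282.5 CPM at 11 d and 139.1 to 261.1 CPM at 14 d. Klrc1 rose by 2.96, 3.05 and 2.82, Klrk1 by 2.67, 2.64 and 2.58, Cd3e by 2.1, 2.45 and 2.54, and Cd3g by 1.89, 2.44 and 2.48, of which Cd3e and Cd3g mark all T cells. The CD8 chain genes Cd8a and Cd8b1 rose by 2.04, 2.68 and 2.55 and by 1.54, 1.93 and 1.96. The list did not move as one between the irradiated times. Of its genes, 3 were called lower at 14 d than at 8 d by edgeR, and they are named after their values were seen: Gzma, encoding granzyme A, by -1.65 (SE 0.3, adjusted p = 0.0021), Prf1, encoding perforin, by -1.38 (SE 0.27, adjusted p = 0.0031), and Ncr1, an NK cell receptor gene, by -1.21 (SE 0.24, adjusted p = 0.0033). Gzma and Prf1 were those not called against NoIR at 14 d, with 0.07 (edgeR adjusted p = 0.87) and 0.43 (adjusted p = 0.25). Ptprc, the general leukocyte gene CD45, had 119.9, 91.3 and 140.3 CPM in NoIR, 270.5, 293.0 and 262.3 at 8 d, 473.4, 321.6 and 301.1 at 11 d, and 505.0, 403.5 and 466.3 at 14 d. The groups of Ptprc did not overlap except at 11 d and 14 d, and its changes were 1.23, 1.64 and 1.97 (SE 0.19 each).

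Markers of other cells moved in both directions. Of 6 macrophage markers 2 rose and 2 fell at 8 d, 4 rose at 11 d and 6 rose at 14 d, with a summed level of 406.7 to 494.7 CPM in NoIR, 413.9 to 558 CPM at 8 d, 743.8 to 1188.5 CPM at 11 d and 1270.1 to 1440 CPM at 14 d. Of 6 endothelial markers 3 fell at 8 d and 6 at 11 d and at 14 d, and their sum went from 3180.1 to 3519.1 CPM in NoIR to 2126.9 to 2332.3, 1308.3 to 1879.4 and 828 to 1071.3. Of 5 alveolar type 2 markers 2, 3 and 4 fell, and of 5 type 1 markers 3, 4 and 5. Of 4 B cell markers 4 rose at 8 d and 0 were called at 11 d or 14 d. Of 5 dendritic cell markers 3 rose and 1 fell at 8 d, and 3 rose and 2 fell at 11 d and at 14 d. Of 4 neutrophil markers tested 2, 2 and 1 rose. Of 5 fibroblast markers 1 rose at each time, and 2, 3 and 3 fell. No marker of these lists was at 0 in any group. H2-K1, H2-D1, B2m and Nlrc5 were called higher at 14 d than at 8 d, where 8.1% of all genes were. So were 5 of 6 leukocyte markers, 5 of 6 macrophage markers, 7 of 10 class II genes and 12 of 18 other heavy chain genes. Of 13 CD8 T and NK cell genes 0 were called higher and 3 lower, and 4 of 4 B cell and 6 of 6 endothelial markers were called lower. The share of all genes called lower in that comparison is not given here. The part of these cell types in the class I result was not tested.

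**Figure D5:**
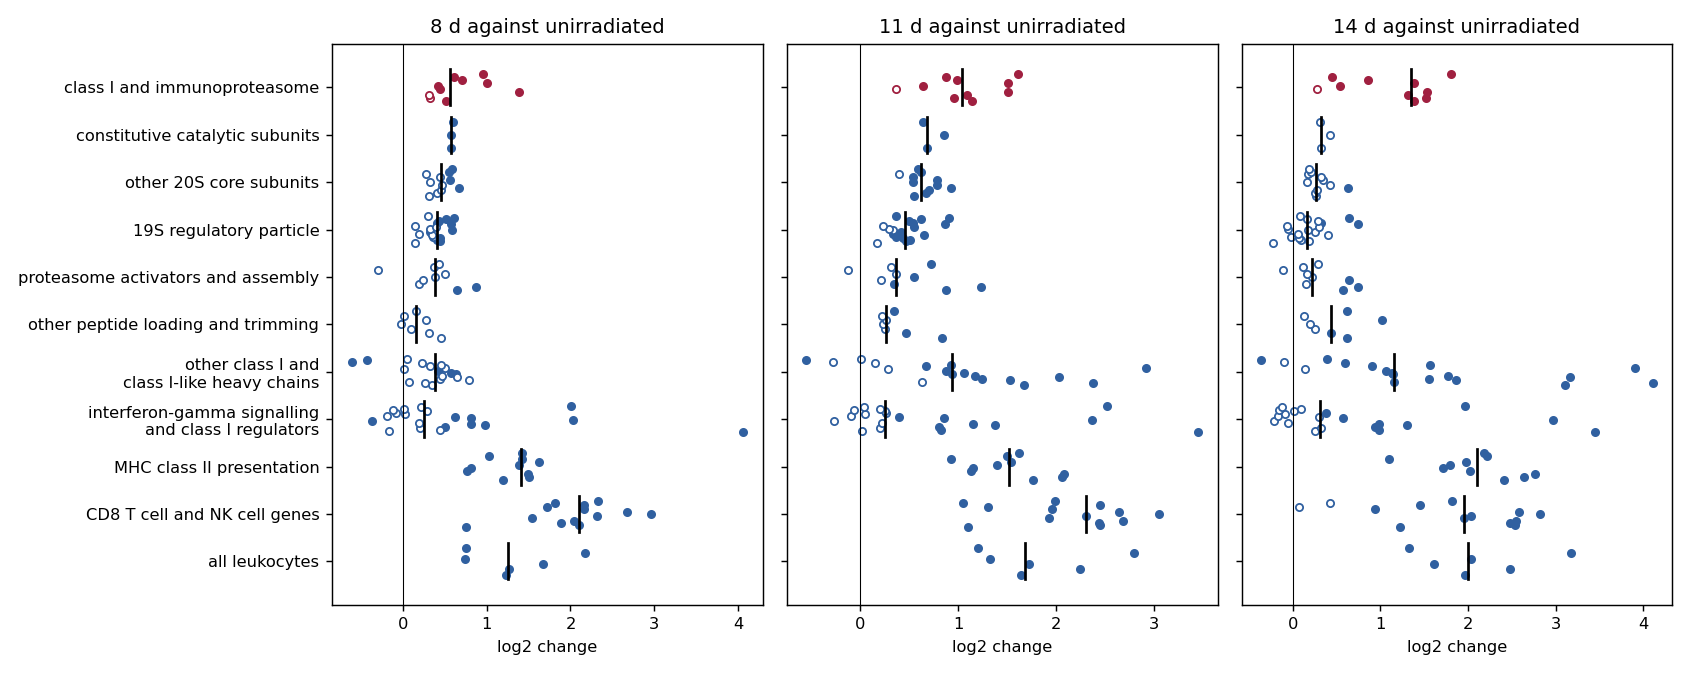
Log2 change from NoIR of every gene of the 10 members and of 10 other lists at 8 d, 11 d and 14 d (edgeR; filled circles have an adjusted p under 0.05, vertical lines are list medians). By median, the members sit above the constitutive proteasome lists at 14 d (1.35 against 0.32, 0.27 and 0.17), though single genes overlap. They sit below class II (median 2.1) and the CD8 T and NK cell genes (median 1.96) at that time. At 8 d the members' median of 0.56 was close to those of the same proteasome lists (0.58, 0.46 and 0.41).

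The mean profile of the 10 members, as log2 CPM centred on each gene's mean, was -0.7, -0.68 and -0.71 in NoIR, 0.01, -0.05 and -0.08 at 8 d, 0.57, 0.3 and 0.19 at 11 d, and 0.53, 0.26 and 0.38 at 14 d. The NoIR libraries were alike, and 11 d replicate 1 and 14 d replicate 1 were the highest. The 5 other genes nearest to this profile over the 12 libraries were Actr3 and Arpc1b, of the Arp2/3 complex that branches actin, Uck2, a nucleoside kinase gene, Lap3, a leucine aminopeptidase gene, and Rgs19, a regulator of G protein signalling. Their root mean square distances were 0.0834, 0.0992, 0.0933, 0.104 and 0.106 on the log2 scale, and those of the members themselves ran from 0.162 for Psmb9 to 0.368 for Tap2. The 5 were picked from many genes for their small distance, and the members were not, so the smaller distances are a description only.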

How the data were processed

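RNA was measured by sequencing in 12 mouse lung samples in 4 groups of 3. Trizol RNA, 1.3 µg per sample, entered a directional NEBNext Ultra II preparation, per the labels' protocols. The submitters' processing notes name TopHat and mm10. Neither a TopHat version nor the counting program, annotation or strand setting is stated in the sources used here. The deposited values are raw counts per gene symbol, 1 table of 23282 lines per sample. Lines of 35 repeated symbols were summed, none of them a member.

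Counts were tested in R 4.3.3 with edgeR 4.0.16 (default expression filter by group, which removed 6754 symbols, TMM scaling, quasi-likelihood F test, 1 fit of 12 samples). P-values were adjusted over 16484 genes by the Benjamini-Hochberg method, and genes were called below 0.05. SE was computed as the size of the log2 change over the root of its F statistic. Ratios of counts plus 0.5 were compared by two-sided exact permutation of the between-group sum of squares over 369600 arrangements of the 12 samples, or 1680 of the 9 irradiated samples. The smallest possible p was 6.5e-05 and 0.0036. DESeq2 1.42.0 and limma-voom (limma 3.58.1) served as alternatives, with other scalings, filters and left-out libraries. The scripts were tested on simulated data. Coordinates and transcript lengths are those of GENCODE M21, and promoter windows are those of RefSeq. Depth, 19624554 to 27765751 counts per library, leaves rare transcripts such as Ifng with few counts, and replicates of a group differed by more than sampling noise (chi-square per degree of freedom of 25.9 or more in every pair).

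The members and gene lists were chosen with earlier results of these data known. Named genes were all members, up to 4 genes per list with the lowest joint p, genes called against their list, Ptprc, Irf1 and Ifng, and the 5 genes nearest in profile among those with a mean of at least 5 CPM. A further gene that the rule names is not reported here. The labels name no batch, date or lane. Whether replicate numbers pair samples was checked by correlating deviations from group means. All 3 same-numbered pairs of NoIR and 8 d lay above 0.1 (0.13 to 0.18, other pairs -0.13 to -0.05). The numbers were therefore read as pairing these groups, from the data and not from a stated design, and no other groups. These correlations are small, since differently numbered pairs of 8 d and 14 d reached 0.57, and they cannot settle which groups are paired. The main fit and its p-values did not use this pairing, and results with the replicate number as a block are given as an alternative.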

Additional observations from a re-analysis of the deposited data

Results flagged for a closer look

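The changes of 4 genes from unirradiated lung differed between 8 d and 14 d in a test of the difference itself (edgeR quasi-likelihood F test, adjusted over all genes). H2-K1 was higher at 14 d than at 8 d by 0.86 on the log2 scale (SE 0.15, adjusted p = 0.0019), H2-D1 by 1.2 (SE 0.16, adjusted p = 0.00029), B2m by 1.01 (SE 0.22, adjusted p = 0.0058) and Nlrc5 by 0.84 (SE 0.19, adjusted p = 0.0084), each with 3 of 3 libraries at 14 d above 3 of 3 at 8 d. The unirradiated libraries cancel in this difference. Groups of 3 libraries were not searched systematically for outlying samples. One library, 14 d replicate 2, stood apart in several heavy chain genes (see Other observations) and held the highest H2-D1 level. The H2-D1 difference was called in 21 of 21 alternative settings, the fit without that library among them.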

How the results depend on the processing

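No called change of a member turned direction. Of the member changes recomputed, 1207 kept their side of the threshold, 35 lost and 18 gained a call. For 11 d against 8 d, 0 became 1 without a filter on low counts, 4 with DESeq2 and 2 with limma-voom, and for 14 d against 11 d, 0 became 1 with DESeq2. Against NoIR, leaving out 1 library gave 5 to 8 members called (8 d), 9 to 10 (11 d) and 7 to 9 (14 d), and the other settings 6 to 8, 9 to 10 and 9. Leaving out 1 library gave 0 to 2 for 11 d against 8 d, 0 to 1 for 14 d against 11 d, 3 to 5 for 14 d against 8 d, and 2 to 4 among irradiated times. The H2-K1 to H2-D1 log2 ratio difference ran from -0.19 to 0.02, and its adjusted exact permutation p was 0.047 without 8 d replicate 1. Outside NoIR and 8 d the replicate numbers were not read as pairing the samples, a reading from the data and not from a stated design. Over all groups 6 of 18 same-numbered pairs had a correlation above 0.1 (range -0.44 to 0.36). With the replicate block the ratio differences stayed 1.04 (Psmb8 to Psmb5) and 1.26 (Tap1 to Tap2), but both adjusted exact permutation p were 0.073, and the block left 7, 10 and 9 members called at the 3 times. The causes were not tested. Scaling by library size alone made 64.3% of the 8 d calls higher, 60.6% of the calls for 11 d against 8 d and 43.4% for 14 d against 8 d, and moved the median of all genes by at most 0.1. Left-out libraries leave a group of 2, fitted with the pooled spread.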

Other observations

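In 14 d replicate 2 several class I heavy chain genes of the Q region, next to H2-D1 on chromosome 17, stood apart, a feature picked out after the values were seen. H2-Q1 had 532.4 CPM there against 119.4 and 104.3 in the other 14 d libraries, H2-Q2 had 347 against 46.3 and 46.9, H2-Q5 had 173.6 against 45.3 and 39.3, and H2-Q4 had 456.4 against 219.1 and 184.6. Ranked by the ratio of this library to the higher of the other two, over 12028 genes, H2-Q2 was at rank 1 (ratio 7.4), H2-Q1 at 2 (4.46), H2-Q5 at 3 (3.83) and H2-Q4 at 5 (2.08). H2-D1 was also highest in that library, at 2227.8 CPM, and H2-K1, at 1559.3 CPM, was not. H2-Q8 and H2-Q9 had 174.6 and 39.8 CPM in it, within or below the values of the other 14 d libraries.

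A further row named H2-L, which the annotation used here does not hold, took 286.8 to 351.9 CPM in NoIR and 352.4 to 435.2 CPM at 8 d. At 11 d it took 500.3 to 701.8 CPM, and at 14 d 719.9 to 847.3 CPM. It was not among the genes listed for the comparisons, and how its reads relate to those of H2-D1 was not tested.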
